A study of Mus musculus with 2 samples.

Results

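The genes described here are 8 genes of steroid hormone synthesis and its control in the adrenal cortex and the gonads (Star, Cyp11a1, Cyp17a1, Hsd3b1, Nr5a1, Cyp21a1, Mc2r and Inha). They were measured in dissected mouse ureters. They were chosen by name, as every non-control probe that both array files assign to one of these symbols, which gave 10 of the 39429 probes and 8 of the 30011 gene names of the array. All 8 genes and 8 of the 10 probes were past the filter on dim probes, under which a probe needed at least 2 of its 4 spots well above background in at least 1 channel of each array. In all, 20495 genes were past that filter. All 4 spots were well above background in all 4 RNAs for 7 of the 8 genes, Mc2r being the other one. This was so for 19127 of the 20495 genes as well, so it does not set the 8 genes apart.

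The RNA came from ureters of NMRI embryos at E14.5. The Rbpj-cKO genotype was Tbx18(cre/+);Rbpj(fl/fl), in which Cre made from the Tbx18 locus removes Rbpj, the DNA-binding partner of Notch, from the mesenchyme around the ureteric epithelium, while cells without Tbx18 history keep the gene. The control genotype was Rbpj(fl/?), so that controls carry a floxed allele, a second allele that the labels do not name, and a Cre status that the labels do not state. On each of 2 arrays the RNAs of both genotypes were hybridised together, labelled from 150 ng of total RNA each. Replicate 1 held male embryos with Rbpj-cKO in red, and replicate 2 held female embryos with Rbpj-cKO in green, so sex, dye orientation and array cannot be told apart. How many embryos gave each RNA is not stated in the labels. Both arrays are called here by their labelled sex.

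Steroid synthesis starts when cholesterol enters the mitochondrion and its side chain is cleaved. Dehydrogenases and hydroxylases then lead to glucocorticoids in the adrenal cortex and to androgens in the Leydig cells of the testis. The ureter is not a steroid-producing organ, but it lies close to the adrenal gland and the gonads in the embryo, so these genes gauge whether tissue of those organs is present in a dissected sample and whether its amount differs between the genotypes.

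The samples were checked against their labels first. Between 67.7% and 70.1% of the spots were well above background in each RNA. Both probes of Rbpj were lower in Rbpj-cKO on both arrays (mean log2 ratios of -0.88 ± 0.35 and -0.42 ± 0.079, SD, n = 2). Of 13 genes that define the ureter, 11 were well above background on all 4 spots in all 4 RNAs, among them Tbx18 with signals from 2995 to 4211. Upk2 and Myh11 were so on fewer spots. The same held for 19127 of the 20495 genes past the filter, so this count does not set the ureter genes apart. The median log2 ratio of the 13 was -0.02. On both arrays 4 were above 0 (1 with median centring in place of loess) and 2 below 0, against 16.1% and 14.7% of all genes. Myocd, a regulator of smooth muscle, had -0.67 and -1.04. One RNA went against its label in part. In the female Rbpj-cKO RNA Ddx3y and Eif2s3y, genes of the Y chromosome, showed signals of 123 and 218, or 8.04% and 8.89% of those in the male Rbpj-cKO RNA, while in the female control Ddx3y was at 2.12 and Eif2s3y at 13.6, well above background on 0 and 2 of 4 spots. The male array is the value without that RNA, and each ratio below is therefore given for each array.

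Levels of a gene are processed signals, the scanner software's background-subtracted and dye-normalized brightness in scanner units, averaged over a probe's spots. A level is compared only with other levels of the same probe, because probes differ in brightness per molecule. Ratios are log2 of Rbpj-cKO over control after background correction and loess normalization. In whole tissue, fewer cells of a type and less RNA per cell cannot be told apart.

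The probes of Cyp17a1 and Cyp11a1 carry a sequence that lies on the genome in separate pieces, and they are shown because, as the file's coordinates read, they pair over their whole length with spliced RNA only. The Cyp17a1 probe covers 614 bases of mm9 chromosome 19 (46742594 to 46743207, minus strand) with 60 bases of sequence. The Cyp11a1 probe covers 471 bases of mm9 chromosome 9 (57874074 to 57874544, plus strand) with 60 bases. Both are printed 5′ to 3′ as the array files give them.
Cyp17a1 probe: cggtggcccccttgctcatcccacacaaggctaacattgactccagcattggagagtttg
Cyp11a1 probe: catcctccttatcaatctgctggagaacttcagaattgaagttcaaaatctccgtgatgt

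Of the regulators, Nr5a1 encodes the nuclear receptor that switches on most steroidogenic genes in adrenal and gonad. Its probe (mm9 chromosome 2, 38548180 to 38548239) had signals of 104 in both male RNAs and of 86.1 and 86.0 in the female Rbpj-cKO and control. The log2 ratios were 0.03 on the male and -0.03 on the female array. On both arrays the ratio was inside the SD between the spots of that probe (0.038 and 0.12), and the mean was the nearest to 0 of the 8 genes.

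Mc2r encodes the receptor for ACTH, the pituitary hormone that drives the adrenal cortex. Its probe (mm9 chromosome 18, 68566613 to 68566672) was dim, with 18.0 in the male Rbpj-cKO and 11.3 in the male control, and 9.29 and 8.04 in the female pair. Of its 4 spots, 4 and 3 were well above background in the male pair but 2 and 1 in the female pair, so the control was measured on 1 of 2 arrays. It was the member whose log2 ratio was above 0 on both arrays, at 0.28 and 0.06. The mean was 0.17 ± 0.15 (SD, n = 2), with a limma 95% interval from -0.16 to 0.50.

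Star encodes the protein that carries cholesterol into the mitochondrion, the step that sets the rate of steroid synthesis. Its brighter probe (mm9 chromosome 8, 26925460 to 26925519) had 21.3 and 21.5 in the male Rbpj-cKO and control, and 15.1 and 17.3 in the female pair. The log2 ratios were 0.03 and -0.08. The other Star probe (26920280 to 26920339) was well above background on at most 1 of 4 spots in any RNA, with signals from 4.72 to 8.18, and no fold is given for it.

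Cyp11a1 encodes the side-chain cleavage enzyme that makes pregnenolone from cholesterol. Its split probe had 24.5 in the male Rbpj-cKO against 16.9 in the male control, and 15.5 in the female Rbpj-cKO against 23.0 in the female control. The genotypes thus stood in opposite orders on the arrays, and the levels of the genotypes overlap. The log2 ratios were 0.27 and -0.28, with spot SDs of 0.11 and 0.055.

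Hsd3b1 encodes the dehydrogenase that turns pregnenolone into progesterone. Its probe (mm9 chromosome 3, 98656127 to 98656186) had 55.8 and 61.6 in the male Rbpj-cKO and control, and 27.0 and 34.0 in the female pair. It was the member whose log2 ratio was below 0 on both arrays, at -0.07 and -0.22, with a mean of -0.14 ± 0.10 (SD, n = 2; limma 95% interval from -0.46 to 0.17). The Hsd3b genes are a family of close copies, and a signal of one of them may contain that of another.

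Cyp17a1 encodes the hydroxylase and lyase on the route to androgens. Its split probe had 2378 in the male Rbpj-cKO and 1956 in the male control, and 1043 and 1211 in the female Rbpj-cKO and control. Both male RNAs were above both female RNAs, while the genotypes again stood in opposite orders. In these signals, which are not scaled between arrays, that order of the sexes held for 7 of the 8 genes, all but Cyp11a1, and for 67.3% of all genes. The log2 ratios were 0.29 and -0.24, and spot SDs were 0.015 and 0.047, so each ratio was far larger than the spread between spots but the arrays did not share a direction.

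Cyp21a1 encodes the hydroxylase that opens the route to corticosteroids and marks the adrenal cortex. Its brighter probe (mm9 chromosome 17, 34938298 to 34938357) had 75.5 and 65.7 in the male Rbpj-cKO and control, and 54.1 and 57.1 in the female pair, with log2 ratios of 0.18 and -0.08. The other Cyp21a1 probe (34940497 to 34940556) was well above background on 0 of 4 spots in each RNA, with signals from 2.09 to 2.21. The probes of this gene therefore disagree on whether its RNA was detected.

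Inha encodes the alpha subunit of inhibin, a hormone of gonadal and adrenal cells. Its probe (mm9 chromosome 1, 75506675 to 75506734) had 556 and 462 in the male Rbpj-cKO and control, and 327 and 434 in the female pair. The log2 ratios of 0.27 and -0.40 were the widest apart of the 8 genes, by 0.67. Where the probes lie relative to exons and untranslated regions was not determined here, because no annotation of mm9 was used.

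**Figure D1:**
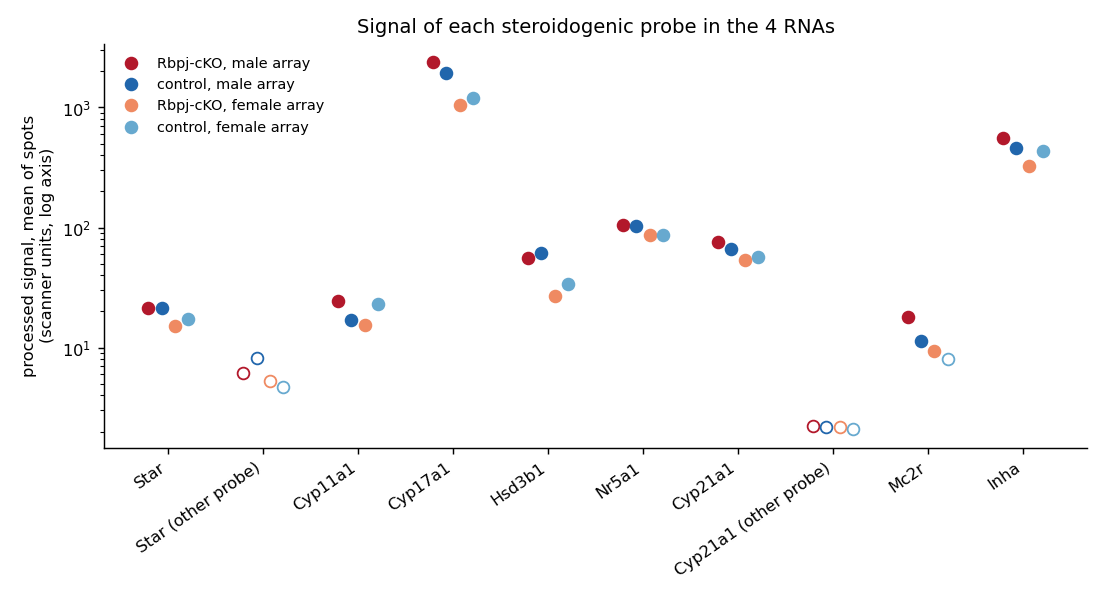
Processed signal (scanner units, log axis) of each of the 10 probes in the 4 RNAs, as the mean over a probe's spots; filled points were well above background on at least 2 of 4 spots and open points on fewer. The other probes of Star and Cyp21a1 are open in all 4 RNAs. Signals are not scaled between arrays, and both male RNAs lie above both female ones for 7 of the 8 genes, by the probe past the filter. The same holds for 67.3% of all genes. Among the 7 are Cyp17a1 (2378 and 1956 against 1043 and 1211) and Hsd3b1 (55.8 and 61.6 against 27.0 and 34.0).

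No member was called different between the genotypes, and every limma 95% interval of the 8 mean ratios held 0. With limma's moderated test on both ratios, 0 of the 8 genes had an adjusted p under 0.05, as did 0% of all 20495 genes. At an unadjusted p under 0.05 there were 0 of the 8, against 1.82% of all genes, and the smallest unadjusted limma p of a member was 0.253, for Mc2r. None was at least 1.5-fold away from equal in a shared direction on the arrays, against 0.195% of all genes (0.132% higher and 0.0634% lower in Rbpj-cKO), and none was so in opposite directions, against 0.717%. The mean log2 ratios ran from -0.14 for Hsd3b1 to 0.17 for Mc2r, with a median of -0.0027 over the 8 genes beside -0.0033 over all genes. Means and SDs (n = 2) of the others were -0.00074 ± 0.044 for Nr5a1, -0.02 ± 0.076 for Star, -0.0046 ± 0.39 for Cyp11a1, 0.02 ± 0.37 for Cyp17a1, 0.05 ± 0.18 for Cyp21a1 and -0.07 ± 0.47 for Inha. With 2 arrays, changing signs cannot give a permutation p below 0.5, and the limma fit has 1 residual degree of freedom.

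The intervals say how large a difference these arrays leave possible. As fold of Rbpj-cKO over control, the limma 95% intervals ran from 0.703 to 1.30 for Inha, from 0.772 to 1.34 for Cyp17a1, from 0.752 to 1.32 for Cyp11a1 and from 0.898 to 1.41 for Mc2r. Those of Star (0.790 to 1.22), Nr5a1 (0.805 to 1.24), Cyp21a1 (0.823 to 1.31) and Hsd3b1 (0.726 to 1.13) lay inside a similar range. For dim probes these ratios are compressed, because an offset of 50 is added to the background-corrected mean intensities. These are not the processed signals, and the 2 are not on the same scale. The dimmest members by processed signal were Star, Cyp11a1 and Mc2r, at 24.5 or less, and Hsd3b1, from 27.0 to 61.6. The scanner software's own ratios, which carry no offset, were 0.54 and -0.57 for Cyp11a1, -0.01 and -0.18 for Star, -0.14 and -0.34 for Hsd3b1, and 0.67 and 0.21 for Mc2r. The means of Hsd3b1 (-0.24 ± 0.14, SD, n = 2) and Mc2r (0.44 ± 0.33) were again not called (limma adjusted p = 1). With these ratios, too, 0 of the 8 genes reached 1.5-fold with a shared direction, against 0.429% of all genes.

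**Figure D2:**
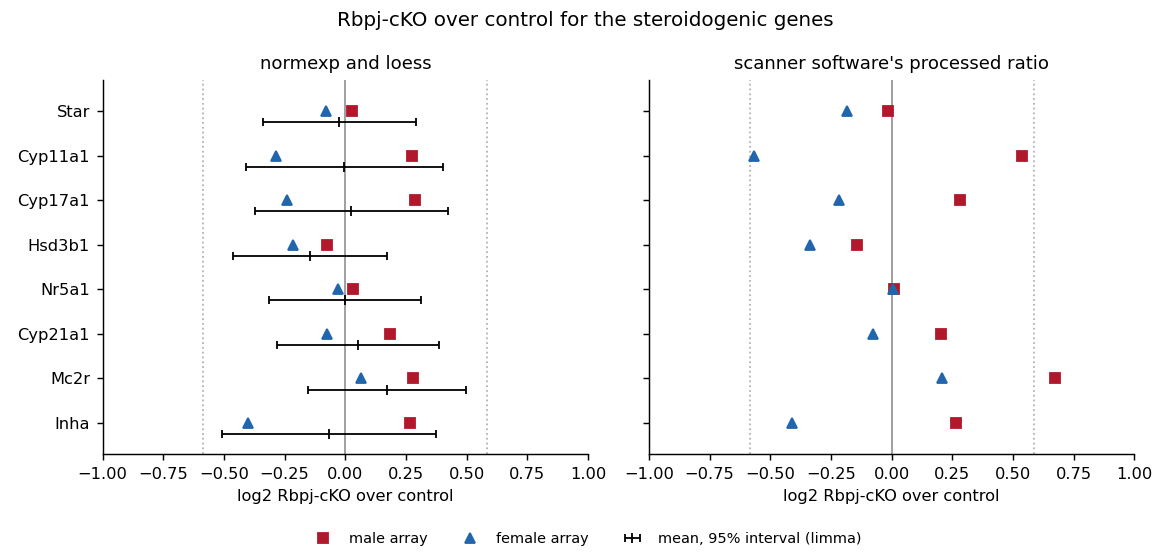
Log2 ratio of Rbpj-cKO over control of the 8 genes on the male array (squares) and the female array (triangles), after normexp and loess (left, with the mean and limma's 95% interval) and as the scanner software's processed ratio (right); dotted lines mark a 1.5-fold difference. Every interval on the left crosses 0, and for each gene the square lies to the right of the triangle.

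The arrays disagreed on direction for most members. Star, Cyp11a1, Cyp17a1, Nr5a1, Cyp21a1 and Inha, 6 of the 8, had a ratio above 0 on the male array and below 0 on the female array, against 34.3% of all genes. The reverse order occurred in 0 of the 8, against 34.9% of all genes. With the scanner software's own ratios 4 of the 8 ran from above to below 0, against 30% of all genes, since Star was below 0 on both arrays (-0.01 and -0.18) and Nr5a1 above 0 on both (0.0095 and 0.0055). Mc2r was above 0 on both arrays, against 16.1% of all genes, and Hsd3b1 was below 0 on both, against 14.7%. All 8 had a higher ratio on the male than on the female array, as did 49.8% of all genes. The medians of the 8 ratios were 0.22 on the male and -0.15 on the female array. Since the dyes were exchanged, a positive ratio on the male array and a negative one on the female array both mean more red than green signal. The 2 arrays ran opposite ways across all genes as well (Pearson's r = -0.352 across genes, which are not independent replicates). The part of the dyes in these ratios was not tested.

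Levels were also set across the arrays, after scaling their brightness distributions to each other (Aquantile). For Cyp17a1 the log2 levels were 12.75 and 12.46 in the male Rbpj-cKO and control and 11.77 and 12.02 in the female pair, a difference between the array means of 0.71. For Hsd3b1 they were 7.86 and 7.94 against 7.37 and 7.58, a difference of 0.42. In these 2 of the 8 genes both male RNAs lay above both female RNAs, against 15.8% of all genes. In 0 of the 8 both male RNAs lay below both female ones, against 14.2%. For the other 6 genes the levels of the arrays overlapped, with differences between the array means from -0.10 for Cyp11a1 to 0.19 for Inha. Within each genotype the male level was above the female level for 3 of the 8 genes, Cyp17a1, Hsd3b1 and Mc2r, against 20.6% of all genes. There is 1 array per sex, so this order was not tested.

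**Figure D3:**
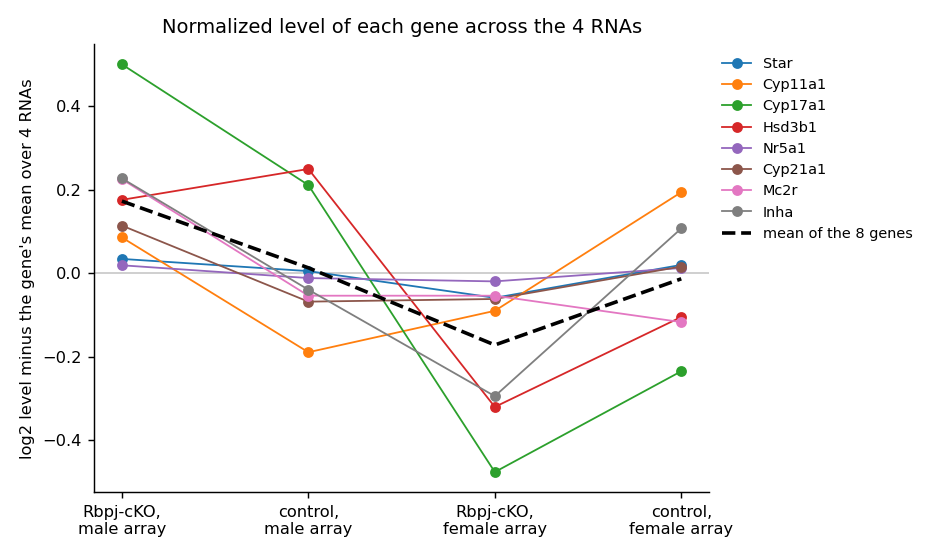
Normalized log2 level of each of the 8 genes in the 4 RNAs, minus the gene's own mean, with lines joining the values of a gene and a dashed line for the mean of the 8. Cyp17a1 spans the widest range, from 11.77 to 12.75 on the log2 scale before centring, and Nr5a1 is nearly flat.

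The members did not share 1 profile over the 4 RNAs. Their distances from the mean profile of the 8, as Euclidean distance over the 4 centred log2 levels, ran from 0.15 for Cyp21a1 to 0.54 for Cyp17a1. That mean profile was itself shallow, from -0.17 in the female Rbpj-cKO to 0.17 in the male Rbpj-cKO. The 5 named genes nearest to it were Grm2, Alpl, Rn45s, Epc2 and Srgap3, at 0.016 to 0.021. They were picked as the nearest of all named genes past the filter, so their distances do not measure how alike the members are.

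Other genes of the pathway were read beside the members. Of 14 other steroid enzymes and redox partners, 9 were measured, 0 had an adjusted p under 0.05, and all 9 had opposite signs on the arrays, as did 69.2% of all genes (median log2 ratio -0.02). With median centring in place of loess 1 of them was above 0 on both. The brightest were Cyb5a, an electron carrier, with -0.14 and 0.07, and Hsd3b2, with -0.13 and 0.41. Hsd3b6, another copy of the family named here after its value was seen, had 0.23 and -0.65, wider apart than any of the 8 genes. Hsd17b1, among the 9 measured and named after its value was seen, was dim. Of its 4 spots, 1 and 2 were well above background in the male pair and 2 and 0 in the female pair. Several enzymes that complete adrenal and ovarian steroids were not well above background. Cyp11b1 and Cyp11b2, which make corticosterone and aldosterone, and Cyp19a1, which makes oestrogens, were so on 0 of 4 spots in each RNA, and so was Akr1c18, which breaks down progesterone. Hsd17b3, which makes testosterone, was well above background on at most 1 of 4 spots. The 10 genes of cholesterol supply, which most cells use, were all measured (median 0.04), with Hmgcs1 at -0.07 and 0.24 and Npc2 at 0.05 and -0.22.

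Other markers of the adrenal cortex and the gonads were read in the same way. Of 11 regulators and markers of the adrenal cortex, 10 were measured, with a median of 0.07. On both arrays 4 were above 0 and 1 below 0, against 16.1% and 14.7% of all genes. With median centring in place of loess 1 was above 0 on both. Some of these are made in other mesenchyme too, such as the imprinted gene Dlk1 (0.58 and -0.63). Mrap, the accessory protein that Mc2r needs to reach the cell surface, was named after its value was seen, with -0.24 and -0.33. Its probe was dim, with 29.6 and 40.2 in the male Rbpj-cKO and control, and 11.3 and 19.4 in the female pair. The scanner software's own ratios for Mrap were -0.44 and -0.79. Nr0b1, the nuclear receptor that restrains Nr5a1, was well above background on 0 of 4 spots in each RNA.

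Of the Leydig and Sertoli genes, 8 of the 10 with a probe were measured (median -0.01), the brightest being Sox9, with -0.11 and -0.19, and Inhba, with 0.13 and 0.10. Of these 8 measured genes, 2 were above 0 and 1 below 0 on both arrays, against 16.1% and 14.7% of all genes. The other 5 had opposite signs, as did 69.2% of all genes. Dhh, a ligand of this list, was named after its value was seen, with 0.28 and 0.75. It was the 1 gene of this list with an unadjusted limma p under 0.05, against 1.82% of all genes. Its adjusted p was not under 0.05, and whether its signal comes from the testis was not tested. Amh, the defining hormone of fetal Sertoli cells, was well above background on 0 of 4 spots in each RNA, at 2.08 to 3.08. Lhcgr, the receptor for luteinising hormone, was so on 2 of 4 spots in both male RNAs and on 0 in both female RNAs. Insl3 was not analysed here. The 5 ovary genes had a median of 0.03, with Foxl2 at 0.06 and -0.30 and Rspo1 at -0.16 and 0.71. All 5 were well above background on all 4 spots in the male as well as the female RNAs, as were 19127 of the 20495 genes past the filter. Foxl2 had signals of 3363 and 3243 in the male Rbpj-cKO and control, and 2536 and 3062 in the female pair. Whether these signals come from ovary was not tested. Of 9 germ cell genes 3 were measured (Ddx4 -0.03 and 0.11, Dnd1 -0.09 and 0.03, and Sycp3, the third, 0.21 and 0.06). Sycp3 was dim, with 4 and 2 of 4 spots well above background in the male pair and 2 and 0 in the female pair, so its control was measured on 1 of 2 arrays. Nanos2, Mael and Dppa3 were well above background on 0 of 4 spots in each RNA. Stra8 was so on 3 spots in the female control (11.8) and 1 in the male Rbpj-cKO, Dazl on 2 and 1 in the male Rbpj-cKO and control, and Pou5f1 on 1 in the female Rbpj-cKO. None of the genes of these lists had a limma adjusted p under 0.05.

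The last list holds genes of the adrenal medulla, whose chromaffin cells lie inside the cortex, and these genes are shared with sympathetic neurons. Of its 12 genes, 10 were above 0 on both arrays (16.1% of all genes) and 5 of these at least 1.5-fold so (0.132%), with a median log2 ratio of 0.92 (1.08 on the male and 0.74 on the female array). Chgb, a granin of secretory granules, had 2.83 and 0.77, Chga 2.11 and 0.95, the noradrenaline-making enzyme Dbh 1.83 and 0.70, and the monoamine transporter Slc18a1 1.48 and 0.99. Of the 12 genes, 10 had an unadjusted limma p under 0.05, against 1.82% of all genes, and 0 an adjusted p under 0.05. Pnmt, which makes adrenaline and marks chromaffin cells of the adrenal gland, was named after its value was seen, with -0.15 and -0.11. Its probe was dim, with 14.52 and 19.62 in the male Rbpj-cKO and control, and 15.49 and 17.67 in the female pair. In the male Rbpj-cKO 3 of its 4 spots were well above background. The scanner software's own ratios for Pnmt, which carry no offset, were -0.45 and -0.19. Whether chromaffin cells of the adrenal gland were present was not tested. The summed signal of the 12 genes was 42055 in the male Rbpj-cKO and 15235 in the male control, and 14988 and 9467 in the female pair. That of the 8 steroidogenic genes was 3233 and 2699, and 1576 and 1870. These sums add different probes and rest on the brightest of them, with Cyp17a1 at 2378 and 1043 in the male and female Rbpj-cKO, and Chgb at 17865 and 2595. The difference between the lists was not tested, and the lists were chosen with these results known.

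**Figure D4:**
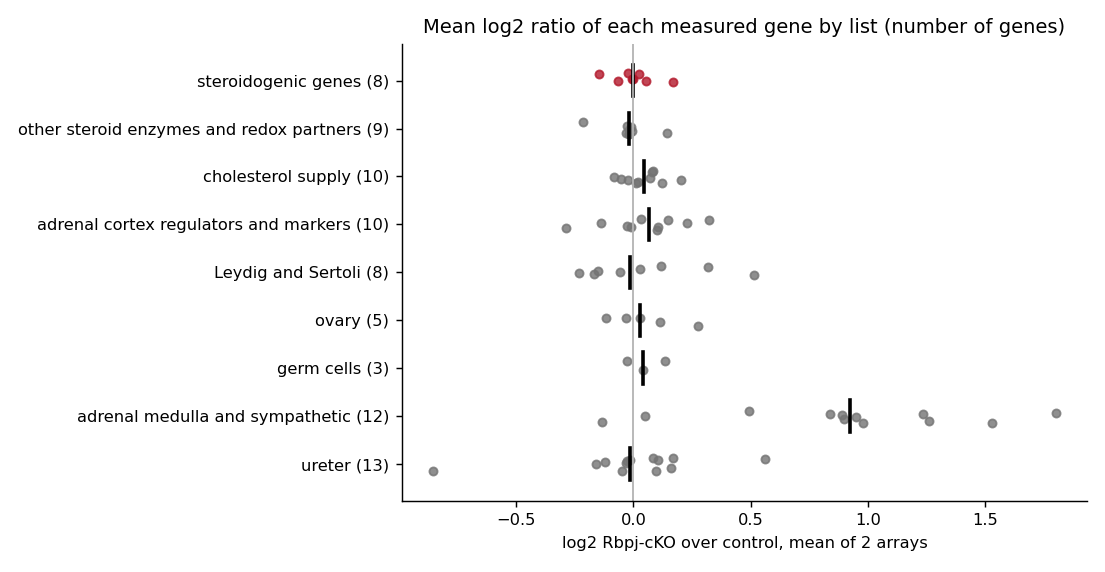
Mean log2 ratio of Rbpj-cKO over control (2 arrays) of each measured gene, by list, with the number of genes in brackets and a bar at the median. The 8 steroidogenic genes lie between -0.14 and 0.17, and the adrenal medulla and sympathetic genes have their median at 0.92.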

How the data were processed

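Two-colour Agilent arrays of 2 replicates were used, each with Rbpj-cKO and control RNA. For each spot and dye, the mean intensity and the local background's median intensity are deposited as linear values that the authors did not normalize, per the file headers. A processed intensity, with background subtraction, detrending and dye normalization, and its log10 ratio of red over green are deposited too, per the file headers. The submitters' processing notes name Agilent Feature Extraction 10.7.3.1. Flags deposited per spot are other values of 0 or 1. A deposited series table was read as signed fold change of Rbpj-cKO over control, since 0 of its values lie between -1 and 1 and its sign and size ran with the processed ratio (r = 0.782 and 0.849). The sources used here do not give how it was computed.

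Spots were corrected with normexp (offset 50) and loess, in which the 17263 control spots had weight 0 (R 4.3.3 with limma 3.58.1). Outlier spots (3.57% and 3.90%) were left out, 0 spots were saturated, and replicate 2 was turned for its dyes. Probes were named through RefSeq accessions (28328), symbols (3400) or the file's name (7701). The brightest probe past the filter stood for a gene. The fit was lmFit and eBayes over all 20495 genes, two-sided, with Benjamini-Hochberg adjustment (5.57 prior degrees of freedom). The steps were also run on simulated spots with planted changes, as a check of their direction. The simulated noise was independent between arrays, with no sex or dye effect, so that run does not gauge the precision here. P-values and intervals rest in part on the spread between 2 arrays, which also differ in sex and dye orientation. That spread has 1 residual degree of freedom, so most weight lies on the prior variance drawn from all genes. Both points limit the precision. Channel levels across arrays were scaled with Aquantile. Named genes are all members, the Rbpj, Tbx18 and sex-linked checks and, per list, up to 4 genes at least 1.5-fold the same way, otherwise the 2 brightest, with any other gene given as named after its value was seen or for being below background. A gene that this rule names is not reported here. The 5 genes of nearest profile leave out clone and predicted names. The 8 members and the 8 other lists were chosen with earlier results of these data known. Alternatives covered background, normalization, filter, probe rule, fold, variance, pairing, single arrays and the deposited table.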

Additional observations from a re-analysis of the deposited data

Results flagged for a closer look

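With 1 array per sex, the differences below were not tested, and each is the log2 ratio on the male array minus that on the female array for a gene whose ratio was above 0 on one and below 0 on the other. Among the steroidogenic genes it was 0.67 for Inha, 0.56 for Cyp11a1, 0.53 for Cyp17a1, 0.26 for Cyp21a1, 0.11 for Star and 0.063 for Nr5a1. Among the other named genes it was 1.20 for Dlk1, 0.36 for Foxl2 and 0.26 for Npc2, and -0.87 for Rspo1, -0.54 for Hsd3b2, -0.32 for Hmgcs1, -0.21 for Cyb5a, -0.14 for Ddx4 and -0.12 for Dnd1. All 6 steroidogenic genes ran from above to below 0 after loess, 4 of them also with the scanner software's own ratios, and the other named genes went either way.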

How the results depend on the processing

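The mean ratios of Star, Cyp17a1, Hsd3b1, Cyp21a1, Mc2r and Inha kept their sign under all 8 alternatives that use both arrays, and 0 of the 8 genes were called under any of these. Of the 8, 4 could move a member's mean, since without the filter, with the mean of probes, with a trended variance and with no replicate block it equals the value reported. Hsd3b1 moved from -0.14 to -0.24 with the processed ratio and in the series table. Nr5a1 turned to 0.0075 with the processed ratio, 0.0029 without background subtraction and 0.013 in the series value table, and Cyp11a1 to 0.052 in that table. With no replicate block, as 2 against 2 channel levels, each mean was the same and 0 genes were called, since the ratio of an array already is the paired value. Single arrays gave -0.079 to 0.029 for Star, -0.28 to 0.27 for Cyp11a1, -0.24 to 0.29 for Cyp17a1, -0.032 to 0.031 for Nr5a1, -0.078 to 0.18 for Cyp21a1 and -0.40 to 0.27 for Inha. Genes called by limma over all genes were 2 with the processed ratio and 5 with a trended, robust variance, against 0. Genes at least 1.5-fold the same way were 88 with the processed ratio, 85 in the series table and 9 at 2-fold, against 40, and 359 to 614 reached it on a single array. The adrenal cortex list's median was 0.054 with median centring, 0.096 with no filter and 0.048 with the mean of probes, and 0.11 to 0.13 on single arrays; on these the medians were -0.035 to 0.040 for cholesterol supply, 0.034 to 0.20 for ovary and -0.031 to 0.058 for germ cells. The cause of these shifts was not tested. Dim signals limit Star, Cyp11a1, Hsd3b1 and Mc2r, and 2 arrays limit every gene.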
